A study of Mus musculus with 14 samples.

Results

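White adipose tissue and lung of wild-type and miR-22 knockout mice were compared at the level of single poly(A) sites, where the 3′ end of an RNA is cut and its poly(A) tail added. The libraries were chosen by their tissue and genotype labels, and they are 4 of the 14 3P-seq libraries (tags sequenced from RNA 3′ ends that mark poly(A) positions) of the series. They hold wild-type adipose tissue, knockout adipose tissue, wild-type lung and knockout lung, 1 library each. Every mouse is given the genetic background 129S5/SvEvBrd, and the knockout allele is written miR-22D. Age, sex, diet and the number of mice per library are not stated in the labels, and whether tissues share an animal is not given either. No group was replicated, so p-values below rest on how far the genotype differences of separate tissues lie apart. The spread at a site or pair was drawn toward that of all those tested, and variation among animals was not measured. In bulk tissue, fewer cells of a type and less RNA per cell cannot be told apart.

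MicroRNAs guide Argonaute proteins to messenger RNAs through their seed, bases 2 to 8 from the 5′ end, which pairs with sites that lie mostly in 3′ UTRs, and transcripts with such a site are destabilised or translated less. The poly(A) site sets where the 3′ UTR ends, and thereby which seed-matched sites a transcript carries. miR-22 is known for its high level in heart and skeletal muscle, and white adipose tissue is the body's main store of triglyceride. The 2 mature products of the miR-22 hairpin are shown here because they are what the knockout allele removes. They are from RefSeq (GRCm38.p6), with the seed in capitals.
mmu-miR-22-3p: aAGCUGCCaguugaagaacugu
mmu-miR-22-5p: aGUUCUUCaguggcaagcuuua
Of the 1679 mature mouse microRNAs in that table, no other shares either seed. The files place sites on build mm9, for which no gene annotation was used here, so sites are named by chromosome, position and strand and not by gene. For the same reason the miR-22 locus was not located as a check on the genotype labels, and the tissue labels were not checked against marker genes.

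The libraries held 2852376 tags in wild-type and 2036838 in knockout adipose tissue, and 4608410 in wild-type and 6010465 in knockout lung. Merging same-strand intervals that overlapped or touched gave 120265 sites, and 33416 of these were seen in every library, with 93.3% of all tags. A further 1964 sites had tags in both wild-type and neither knockout library, with at most 12 tags in sum, and 2965 had tags in both knockout and neither wild-type library, with at most 19. Nothing abundant was therefore seen in both tissues of 1 genotype with no tag at all in the other. Sites with a few tags in the other genotype are not in these counts, among them the largest shared difference described below. After a filter on low counts, 18516 sites were tested, holding between 95.6% and 96.8% of a library's tags. The filter took no account of genotype, so a site could enter the test through the libraries of 1 genotype alone. Values in CPM are tags relative to library size after TMM scaling, which trims extreme sites before libraries are matched.

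The comparison over both tissues asked which sites differ between genotypes in the same way in adipose tissue and lung. In edgeR's quasi-likelihood test with terms for tissue and genotype, 10 sites were higher in knockout (0.054% of 18516) and 4 were lower (0.0216%) at an adjusted p under 0.05. Scaling by total tags gave 9 higher and 2 lower. In all, 886 of the 18516 sites had an unadjusted p under 0.05, fewer than that limit alone would give if no site differed. With 200 sites changed in simulated counts, the test found 91.5% of them at 8-fold, 26% at 4-fold and 0% at 2-fold, so sites with small shared differences were out of its reach. These changed sites were drawn from better covered sites than the filter asked for. Recovery at sparse sites, such as most of the sites called, was not measured.

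The largest shared difference was at chromosome 1, 162968635 to 162968667 (+). This site had 2 tags in wild-type and 232 in knockout adipose tissue, and 5 in wild-type and 1367 in knockout lung. It was nearly silent in both wild-type libraries and reached 138.5 CPM in knockout adipose tissue and 188.2 CPM in knockout lung. Only its knockout libraries reached the level of the filter. The ratio was 155 in adipose tissue (exact binomial 95% interval 42.3 to 1285) and 190 in lung (81.0 to 584.5). On the log2 scale the fit gave 7.41 ± 0.84 (standard error; edgeR adjusted p = 2.44e-14). In the other tissues, whose libraries did not enter this fit, heart had 204 knockout against 6 wild-type tags, muscle 118 against 4, liver 427 against 1 and kidney 143 against 1. Of its neighbours, 5 tested sites lay within 2627 nt upstream on the strand, and none of them passed the test. The nearest of them, 406 nt upstream, had 0 and 1 tags in wild-type and knockout adipose tissue, and 73 and 213 in lung.

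Next by p came chromosome 8, 85821894 to 85821981 (+), mainly an adipose site. It had 108 and 1533 tags in wild-type and knockout adipose tissue and 3 and 102 in lung. The ratio was 18.9 in adipose tissue (15.6 to 23.2) and 23.6 in lung (7.84 to 116), and the fit gave 4.32 ± 0.71 on the log2 scale (standard error; edgeR adjusted p = 1.26e-05). Muscle had 3 and 90 tags and kidney 0 and 14 in wild type and knockout, while heart had 1 and 2 and liver none. Knockout was thus higher wherever more than a few tags fell on the site.

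A pair of abundant adipose sites showed the same layout, high in adipose tissue and sparse in wild-type lung. At chromosome 3, 121239091 to 121239123 (+), levels stood at 285.7 and 1192 CPM in wild-type and knockout adipose tissue and 2.78 and 40.5 CPM in lung (log2 difference 2.86, edgeR adjusted p = 0.0249). At chromosome 4, 148823768 to 148823826 (-), they stood at 520.8 and 2126 CPM in adipose tissue and 1.59 and 24.4 CPM in lung (log2 difference 2.81, edgeR adjusted p = 0.0342). Their ratios were smaller in adipose tissue, 4.17 and 4.08, than in lung, 14.6 and 15.3. The first of them is also one of the adipose-characteristic sites described below, which as a group were higher in knockout lung, and the part of that in its call was not tested.

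The other 6 sites called higher were sparse, with at most 160 tags in any library. At chromosome 17, 6942623 to 6942691 (-), tags went from 1 to 17 in adipose tissue and from 13 to 122 in lung (edgeR adjusted p = 0.0115). At chromosome 6, 65708565 to 65708593 (+), they went from 4 to 78 in adipose tissue and from 4 to 19 in lung (edgeR adjusted p = 0.0115). At chromosome 17, 17946689 to 17946722 (-), adipose tissue had 3 and 25 tags and lung 0 and 17, at least 3.93-fold higher against a floor of 3 tags (edgeR adjusted p = 0.00848). On chromosome 6 at 133707413 (-), and on chromosome 1 at 145496974 (+), there were 13 against 3 and 48 against 14 tags in knockout and wild-type adipose tissue (edgeR adjusted p = 0.0333 and 0.0473). In lung they had 46 against 3 and 30 against 1. The call on chromosome 11 at 89897672 (+) rested on lung, with 13 and 160 tags, since adipose tissue had 0 and 2 (edgeR adjusted p = 0.0473). Its neighbour 140 nt downstream had 713 and 830 tags in lung and did not pass the test. Of these sparse sites, both on chromosome 6 and that on chromosome 17 at 17946689 reached the filter's level in knockout libraries alone. They entered the test through the genotype in which they were high, and the part of that in their calls was not tested.

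The 4 sites called lower were all sparse. One at chromosome 8, 88348475 to 88348501 (+), had 49 and 5 tags in wild-type and knockout adipose tissue and 41 and 7 in lung (log2 difference -2.96, edgeR adjusted p = 0.0115). It was 7.35-fold lower in knockout adipose tissue (2.94 to 23.6) and 8.45-fold lower in knockout lung (3.75 to 22.3). Outside these tissues it went the other way, with 149 wild-type and 814 knockout tags in heart and 12 and 513 in kidney. Another, at chromosome 1, 154365670 to 154365705 (-), had 18 and 1 tags in adipose tissue and 15 and 1 in lung (edgeR adjusted p = 0.0115). It had no tag in the knockout libraries of heart, muscle, liver and kidney, against 8, 3, 4 and 21 in wild type. The sites at chromosome 5, 23666602 (+), and chromosome 8, 3680919 (+), had 45 and 2, and 34 and 4 tags in adipose tissue (edgeR adjusted p = 0.0302 and 0.0342). In lung they had 62 and 21, and 49 and 11. Both chromosome 8 sites called, and the chromosome 1 site, reached the filter's level in wild-type libraries alone. They too entered the test through the genotype in which they were high, and the part of that in their calls was not tested. Next by p, and not called, was the site at chromosome 8, 32260333 (-), with 278 and 13 tags in adipose tissue and 134 and 86 in lung (edgeR adjusted p = 0.207).

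**Figure D1:**
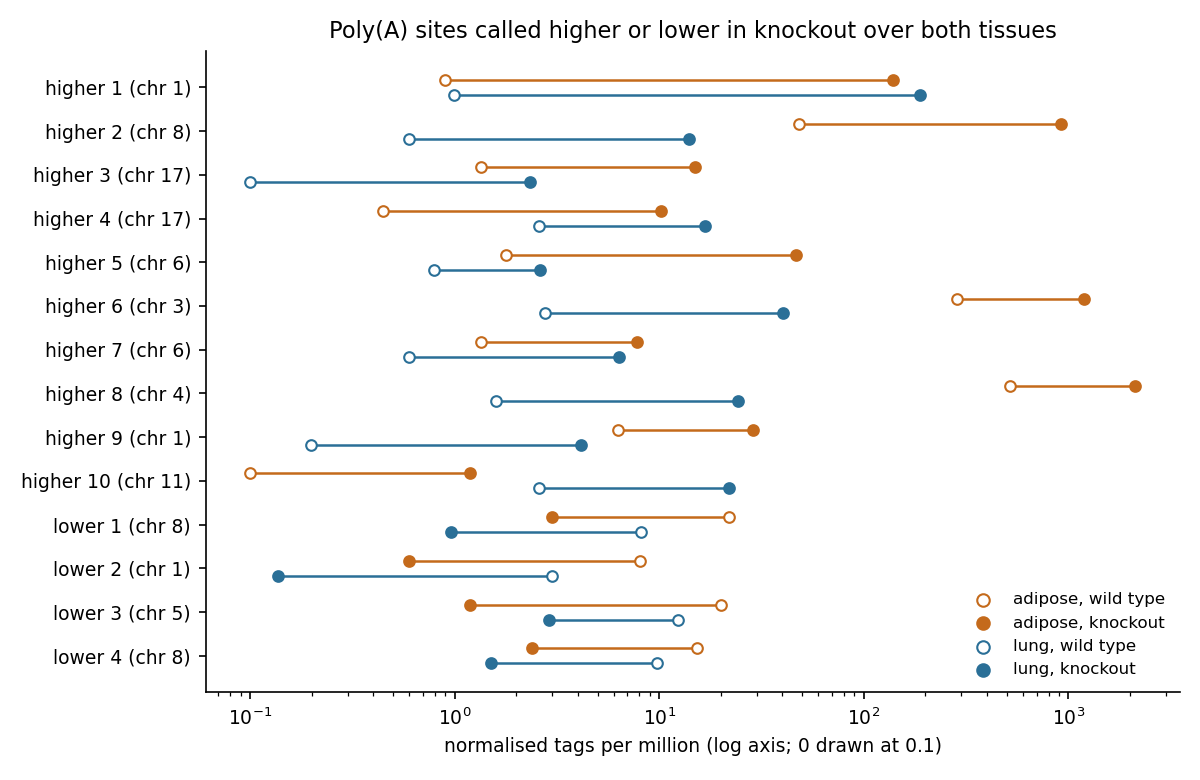
Abundance of the 14 called sites in the 4 libraries, in CPM on a log axis, with open circles for wild type, filled circles for knockout, and 1 library per circle. The sites are listed by direction in order of p, from chromosome 1, 162968667, to chromosome 8, 3680919; the first stands apart by the length of its lines, and values of 0 are drawn at 0.1.

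The first 2 of these sites, at chromosome 1, 162968667 and chromosome 8, 85821947, passed the test under 10 of 11 alternative analyses, failing without a tissue term. Of the 11, 4 left out a library and so held the genotype difference of 1 tissue alone. They do not test both tissues, and leaving out either library of a tissue gave nearly the same fit. These 4 are among the 10 passes of each of the first 2 sites. The chromosome 17 site at 6942623 passed under 8, of which 4 left out a library, and the chromosome 3 site under 7, of which 2 did. The 4 sites called lower passed under 2 to 4, none with a library left out. DESeq2 called 4 sites, all higher in knockout and all among the 14, and the chromosome 17 site at 6942623 was not among them. When any 1 of the adipose or lung libraries was left out of a 12-library fit, its tissue gave no genotype difference and the other tissue alone gave 90 to 133 calls, 6 or 7 of them among the 14. The sites called lower were not among them.

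Within adipose tissue and within lung, 1 library was compared with 1 and these ratios were not tested, so intervals cover counting error only. Adipose tissue had 836 sites at least 2-fold higher and 1124 at least 2-fold lower in knockout among 5670 sites with 20 CPM or more in the higher library, 34.6% in all. Lung had 547 higher and 388 lower among 6314 such sites, 14.8%. Scaling by total tags instead of TMM moved the median log2 ratio of all sites to 0.07 in adipose tissue and, from -0.003, to 0.14 in lung. With it, lung had 849 higher and 298 lower, so 74.0% of its 2-fold sites were higher in knockout, against 58.5% with TMM. In adipose tissue that share was 48.7% with total tags and 42.6% with TMM. At 200 to 1000 CPM the share of 2-fold sites was 34.9% in adipose tissue and 9.05% in lung, and at 1000 CPM or more it was 21.8% and 13.0%. The adipose libraries held fewer tags than those of lung, and the part of depth in these shares was not tested.

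The genotype ratios of the 2 tissues were nearly unrelated across sites. Among 4268 sites with 20 CPM or more in both tissues, Pearson's r between the log2 ratios was 0.028 and Spearman's rho 0.019, as a description over sites that share their 4 libraries. The same sign was seen at 2160 of them, 50.6%. The standard deviation of the log2 ratio was 1.04 in adipose tissue and 0.70 in lung. At least 2-fold higher in both tissues were 51 sites (1.19%), and at least 2-fold lower in both were 28 (0.656%). Opposite 2-fold differences were present at 101 sites (2.37%), 71 of them lower in knockout adipose tissue and higher in knockout lung. A 2-fold difference in adipose tissue with less than 1.2-fold in lung was present at 485 sites (11.4%), 178 higher and 307 lower. The reverse, in lung only, was present at 86 sites (2.01%), 53 higher and 33 lower. Scaling by total tags gave 71 higher and 12 lower in both tissues, so that 85.5% were higher against 64.6% with TMM. It gave 71 higher and 14 lower in lung only, 83.5% higher against 61.6%.

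**Figure D2:**
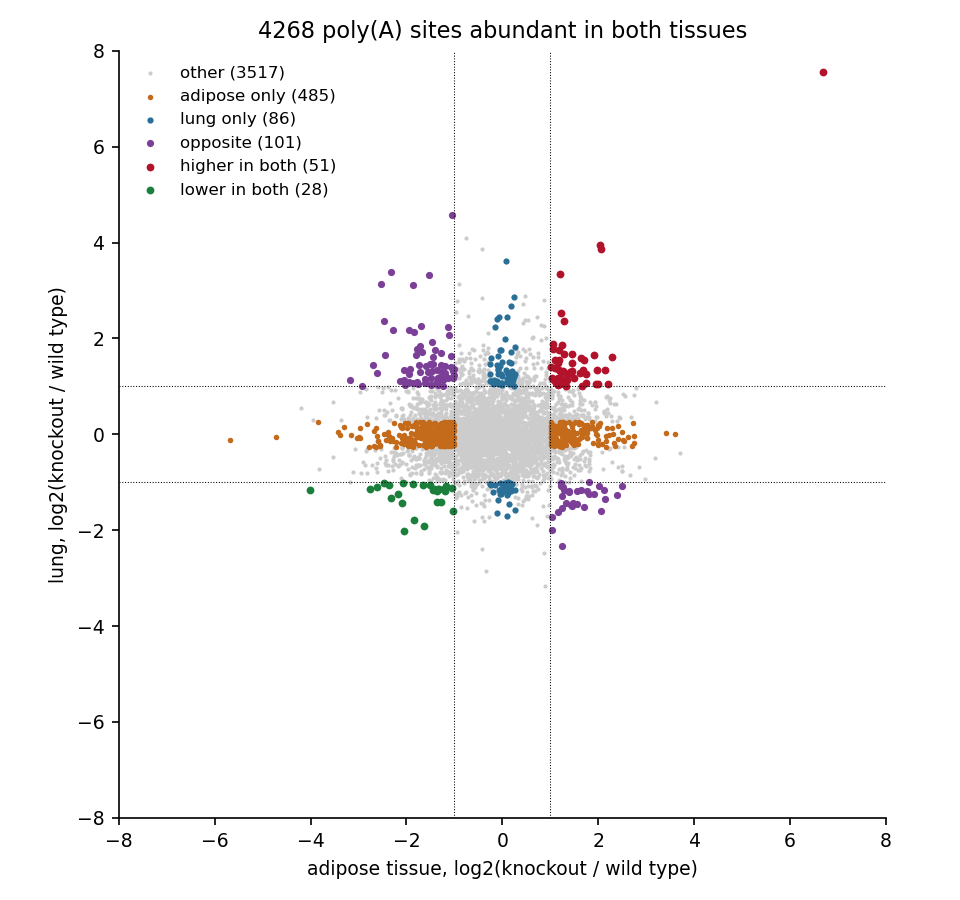
Log2 ratio of knockout to wild type in adipose tissue (horizontal axis) and in lung (vertical axis) for 4268 poly(A) sites at 20 CPM or more in both tissues, with dotted lines at 2-fold and colours for the classes named in the text. The cloud has no slope (r = 0.028), is wider in adipose tissue, and leaves the chromosome 1 site at 162968667 alone at the upper right.

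Sites 2-fold apart in both tissues included some without a call that were well covered. At chromosome 11, 75284359 to 75284416 (+), there were 125 and 218 tags in wild-type and knockout adipose tissue and 94 and 785 in lung (edgeR adjusted p = 0.594). It was picked for the text with its values in the other tissues known, and the levels there were 17.5 and 210.6 CPM in wild-type and knockout heart, 8.02 and 509.2 CPM in muscle, 166.9 and 248.7 CPM in liver, and 25.1 and 222 CPM in kidney. The chromosome 2 site at 172984770 (+) had 558 and 968 tags in adipose tissue and 10 and 146 in lung (edgeR adjusted p = 0.416), and 141 and 482 CPM in wild-type and knockout kidney. Among sites lower in both, the chromosome 2 site at 132694041 (-) had 77 and 14 tags in adipose tissue and 171 and 61 in lung, and at most 7 in any library of the other tissues. The most abundant, at chromosome 6, 138105272 (+), had 3966 CPM in wild-type and 1722 CPM in knockout adipose tissue and 1424 and 623 CPM in lung. It was more abundant in liver and went the other way there, with 8550 CPM in wild type and 13470 CPM in knockout. Heart was also higher in knockout, at 120.3 and 227.4 CPM. Muscle was lower, at 244.6 and 149.3 CPM, and kidney had 167.5 and 179.2 CPM. The other 4 tissues took no part in choosing the full sets of 51 and 28 sites, and muscle leaned the same way for both sets. Of the 51 sites higher in both, 49 had 10 tags or more in muscle and 37 of those were higher in knockout muscle, 75.5% against 42.6% of the 4268 sites. Of the 28 lower in both, 22 of 26 were lower in knockout muscle, against 57.5% of the 4268 sites. Of the sites higher in both, 23 of 50 were higher in knockout heart, 26 of 49 in liver and 23 of 50 in kidney, against 50.1%, 44.0% and 41.5% of the 4268 sites. Of those lower in both, 12 of 28 were lower in knockout heart, 9 of 25 in liver and 15 of 26 in kidney, against 49.9%, 56.0% and 58.5%.

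Of the 2 tissues, in adipose tissue alone the largest single difference was at chromosome 9, 106372958 to 106373008 (-), with 340 wild-type and 5 knockout tags. It was 51.0-fold lower in knockout (21.6 to 158) in adipose tissue, while lung had 451 and 600 tags, a ratio of 0.92 (0.81 to 1.04). The chromosome 4 site at 126386956 (+) had 327 and 17 tags in adipose tissue and 486 and 838 in lung. The chromosome 2 site at 131073757 (+) had 302 and 21 against 365 and 545, and the chromosome 9 site at 15087780 (-) 515 and 39 against 236 and 380. These 4 sites were 9.905-fold to 51.0-fold lower in knockout adipose tissue, and their lung ratios lay between 0.92 and 1.195. These sites stand apart from lung and not from every tissue. In muscle the first had 132 wild-type and 5 knockout tags, and the chromosome 4 site 452 and 71. Kidney had 12 and 73 at the first. Higher in adipose tissue alone was the chromosome 7 site at 97596226 (+), with 32 and 255 tags, 10.6-fold (7.34 to 15.9), against 249 and 368 tags and a ratio of 1.02 in lung. The chromosome X site at 98879687 (+) had 78.8 and 521.8 CPM in adipose tissue and 260.1 and 306.8 CPM in lung.

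In lung alone the differences were smaller. The chromosome 8 site at 3671185 (-), with 2190 CPM in wild-type and 2094 CPM in knockout adipose tissue, had 76 wild-type and 598 knockout tags in lung, 5.45-fold higher (4.29 to 7.02). The chromosome 6 site at 90610376 (-) had 46.1 and 156.8 CPM in lung and 259.3 and 251.4 CPM in adipose tissue. Lower in lung alone was the chromosome 3 site at 107815178 (-), among the most abundant lung sites, with 5243 and 2234 CPM in lung and 3552 and 3881 CPM in adipose tissue. Within lung the largest decreases at any adipose level were at chromosome 9, 57551609 (+), 9.42-fold lower (5.63 to 16.8) with 111 and 17 tags, and chromosome 6, 84521418 (-), 9.001-fold lower (5.65 to 15.0) with 131 and 21. The chromosome 9 site had no tag in either adipose library. The chromosome 10 site at 23908764 (+) was lung-biased and better covered, with 1911 and 448 tags in lung and 19 and 15 in adipose tissue.

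Whether the genotype difference itself differed between the tissues was tested against the spread of the other 4 tissues, with the single adipose and lung libraries assumed to vary as those do. In edgeR's test 50 sites passed, 21 with the higher knockout-to-wild-type ratio in adipose tissue (0.113%) and 29 with the higher ratio in lung (0.157%). The site of smallest p was at chromosome 1, 46067078 to 46067104 (-). It had 5 and 71 tags in wild-type and knockout adipose tissue but 17 and 3 in lung (log2 difference of differences 7.08, edgeR adjusted p = 0.000968). At chromosome 6, 11288032 to 11288062 (-), adipose tissue had 458 and 69 tags and lung 54 and 813 (-5.72, edgeR adjusted p = 0.0108). At chromosome 16, 3904736 to 3904768 (+), adipose tissue had 162 and 21 and lung 26 and 329 (-5.68, edgeR adjusted p = 0.00895). At both, the wild-type library was the high one in adipose tissue and the low one in lung. At chromosome 7, 86865109 to 86865193 (-), a site with 12594 and 5550 tags in adipose tissue, lung had 19 and 467 (-4.87, edgeR adjusted p = 0.0108). The number of such sites rested on the tissues that gave the spread, and was 113 without the heart libraries, 15 without those of liver and 18 without those of kidney.

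Signs of differing tissue composition were sought with lists of sites that are high in 1 tissue. A site entered a list when both libraries of its tissue had 50 CPM or more and at least 4 times the highest library of the other tissues, with the tissue under study left out of the choice. A list can therefore hold sites that are also abundant in the tissue under study, and its summed abundance there can rest on them. The adipose list held 104 sites, and 103 of them had 10 tags or more in lung. Of these, 80 had a higher CPM in knockout lung and 23 a lower one (median log2 ratio 0.85), against 49.9% higher and a median of -0.003 over 17946 sites. At least 2-fold higher were 45, and at least 2-fold lower were 2. Their summed abundance in lung was 10830 CPM in wild type and 14900 CPM in knockout. The 3 most abundant sites of the list were all higher in knockout lung. The first, at chromosome 3, 10204328 to 10204562 (-), stood at 81200 and 41730 CPM in wild-type and knockout adipose tissue and had 308.6 and 1816 CPM in lung, 5.88-fold higher in knockout lung (5.58 to 6.21). The second, at chromosome 10, 79355398 (+), had 34020 and 56560 CPM in adipose tissue and 72.3 and 395.5 CPM in lung. The third, at chromosome 3, 14872531 (+), had 24850 and 33370 CPM in adipose tissue and 44.1 and 288.6 CPM in lung.

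The ratios were largest at sites with little use in lung. Among the 51 list sites whose lung level was under 5% of their adipose level, over both genotypes, 48 were higher in knockout, and their median log2 ratio was 1.53 (quartiles 1.02 and 2.44). Where the lung level was 5% to 20% of the adipose level, 17 of 29 sites were higher, with a median of 0.24. At 20% or more it was 15 of 23, with a median of 0.31. In adipose tissue the first 51 sites had a median log2 ratio of 0.37, with 37 higher in knockout. Of the 62 list sites with 20 CPM or more in lung, 21 (33.9%) were at least 2-fold higher in knockout lung, against 8.66% of all 6314 sites at that level, and they were 3.84% of the 547 sites of that kind.

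**Figure D3:**
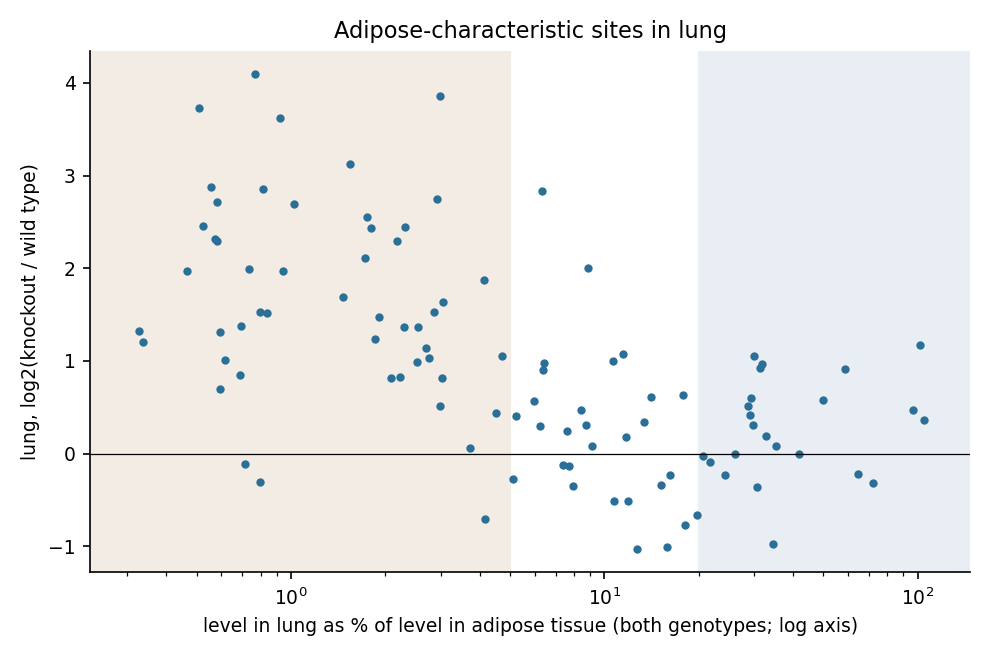
Log2 ratio of knockout to wild type in lung for 103 adipose-characteristic sites, against their level in lung as a percentage of their level in adipose tissue, on a log axis. Shading marks levels under 5% and of 20% or more; in the first zone 48 of 51 sites lie above 0, and in the last 15 of 23.

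Heart-characteristic sites went the other way in lung. Of 66 sites, 49 were lower in knockout lung (median log2 ratio -0.40), and their summed abundance was 40740 CPM in wild type and 22080 CPM in knockout. Lung took no part in choosing the list, so this sum can rest on sites abundant in lung itself and is no measure of heart content. The 3 leading heart sites, at chromosome 5, 122556862 (+), chromosome 9, 110672297 (+), and chromosome 4, 129992701 (+), had 342.7, 232.1 and 305.4 CPM in wild-type lung and 221.3, 130.8 and 155.9 CPM in knockout lung. Kidney-characteristic sites were lower in knockout lung at 71 of 105, with a median of -0.24. Muscle and liver lists were close to all sites, with medians of -0.05 and 0.02. Total-count scaling put the muscle median at 0.10, against 0.14 over all sites. The leading muscle site, at chromosome 11, 67073941 (+), had no tag in either lung library.

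In adipose tissue heart-characteristic sites had the largest median log2 ratio of the 5 lists, 0.70, with 23 of 35 higher in knockout, but their summed abundance went from 17480 CPM in wild type to 12070 CPM in knockout. Requiring 8 times the other tissues left 17 such sites, 14 of them higher, with a sum of 115.1 CPM in wild type and 214.9 CPM in knockout. The same 3 leading heart sites had 5, 3 and 17 tags in wild-type and 29, 9 and 40 in knockout adipose tissue. Kidney-characteristic sites were lower in knockout adipose tissue at 49 of 78, with a median of -0.25, although their sum went from 5072 to 5545 CPM. Medians were 0.09 for lung, 0.11 for muscle and -0.10 for liver sites, the last with 0.09 at a margin of 8 times. The leading liver site, at chromosome 5, 90905626 (+), had 15.7 CPM in wild-type and 61.5 CPM in knockout adipose tissue. The leading muscle site had 457.7 and 502.1 CPM there, and the muscle list as a whole summed to 17160 and 16670 CPM. How much of the 14 calls and of the 2-fold counts goes with these shifts was not tested.

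**Figure D4:**
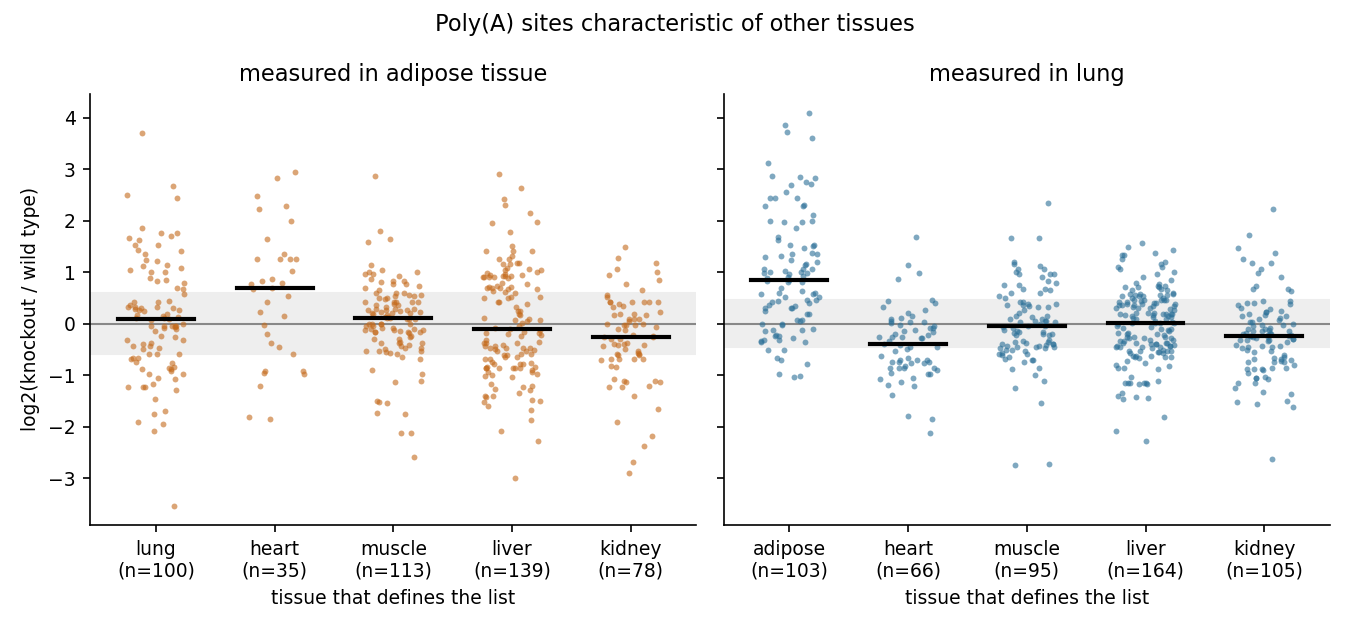
Log2 ratio of knockout to wild type for sites characteristic of other tissues, measured in adipose tissue (left) and in lung (right), 1 point per site, with a black bar at the median of each list. The grey line and band are the median and quartiles of all sites with 10 tags or more; adipose sites in lung (median 0.85) and heart sites in adipose tissue (0.70) lie highest, and heart sites in lung (-0.40) lowest.

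Mitochondrial transcripts, polyadenylated products of the mitochondrial genome, held 12.3% of the tags in wild-type and 9.004% in knockout adipose tissue, and 3.52% and 4.21% in lung. The leading sites, at 15287 (+), 11543 (+) and 3704 (+), had 49640, 46800 and 49600 CPM in wild-type adipose tissue and 35020, 40780 and 22900 CPM in knockout. Merging made these long intervals, 14145 to 15287, 11019 to 11543 and 2138 to 4807, so each pools tags over many positions and is not a single poly(A) site. In lung they had 8118, 5245 and 11800 CPM in wild type and 8957, 6431 and 12970 CPM in knockout, so all 3 were lower in knockout adipose tissue and higher in knockout lung. Over the mitochondrial sites at 20 CPM or more, 22 of 30 were lower in knockout adipose tissue and 15 of 27 in knockout lung, with median log2 ratios of -0.28 in each. The site at 14142 (+) went against the leading 3, with 1199 and 2189 CPM in wild-type and knockout adipose tissue and 163.9 and 29.6 CPM in lung. Along the nuclear chromosomes the median log2 ratio of sites at 20 CPM or more ranged from -0.45 (chromosome 3) to 0.30 (chromosome 7) in adipose tissue, and from -0.08 to 0.09 in lung. Between 29.3% and 41.1% of a chromosome's sites were 2-fold apart in adipose tissue and between 11.7% and 18.7% in lung, so the wider spread in adipose tissue was seen on each chromosome.

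Site use was compared in pairs of adjacent sites of the same strand at a distance of 100 to 5000 nt, of which 2932 were well enough covered in all 4 libraries. The share of a pair's tags at the distal site cancels library size. The median distal share was 48.3% in wild-type and 50% in knockout adipose tissue, and 55.6% and 55.5% in lung. The edgeR test over both tissues called no pair (0%). An unadjusted p under 0.05 was seen at 134 of the 2932, fewer than that limit alone would give if no pair differed. The 12-library fit called none, nor did stricter limits on the pairs, and DESeq2 was not run on them. Leaving out either adipose library from the 12-library fit gave 16 or 15 calls, and leaving out either lung library 5 or 3. Simulated pairs were shifted in the odds of distal to proximal tags, not in the share itself. The test recovered 0% of pairs at a 2-fold shift, 8% at 4-fold and 74.5% at 8-fold. Smallest in p was a chromosome 17 pair, proximal 6942959 and distal 6942623 (-), whose distal site is also among the 14 called. Its distal share was 2.56% and 70.8% in wild-type and knockout adipose tissue, on 39 and 24 tags, and 1.59% and 9.63% in lung, on 819 and 1267 tags (edgeR adjusted p = 0.185).

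Within a tissue, a pair was counted as moved when its distal share differed by 10 percentage points or more and the exact binomial 95% intervals did not overlap. In adipose tissue 342 pairs moved (11.7%), 175 toward the distal and 167 toward the proximal site in knockout. In lung 542 moved (18.5%), 291 and 251. The lung libraries had a median of 144 and 222 tags per pair and the adipose libraries 68 and 47, and the part of depth in these numbers was not tested. At a limit of 20 percentage points 236 pairs moved in adipose tissue and 251 in lung. There were 45 pairs that moved in the same direction in both tissues (1.53%), 26 distal and 19 proximal, and 45 moved in opposite directions (1.53%). Pairs with sites 1000 to 5000 nt apart moved about as often as those 100 to 299 nt apart, at 11.1% against 13.0% in adipose tissue and 19.2% against 18.1% in lung.

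Among the pairs that moved together were 4 whose wild-type shares differed between the tissues. On chromosome 14, proximal 30788024 and distal 30788201 (+), the distal share was 48.0% and 74.9% in wild-type and knockout adipose tissue and 18.3% and 54.1% in lung. On chromosome 8, proximal 74746920 and distal 74747344 (+), it was 16.04% and 3.59% in adipose tissue and 60.7% and 20.3% in lung. This pair was also more proximal in knockout heart, muscle and kidney, at 10.99% against 20%, 12.5% against 29.6% and 6.59% against 36.8%. In liver its share was 3.25% in wild type and 6.30% in knockout. On chromosome X, proximal 71272168 and distal 71271931 (-), it was 40.7% and 13.4% in adipose tissue and 82.9% and 41.5% in lung. On chromosome 1, proximal 84719332 and distal 84717770 (-), it was 30.6% and 80.6% in adipose tissue and 14.2% and 35.6% in lung. In heart the last 2 went the other way: the distal share was 18.8% in wild type and 43.7% in knockout for the chromosome X pair, and 72.2% and 43.9% for the chromosome 1 pair. The chromosome 14 pair had 45.2% and 58.6% in heart and 55.5% and 73.1% in muscle, and differed by under 3 percentage points in liver and kidney. All 4 had an edgeR adjusted p of 0.711 in the test over both tissues.

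Other pairs moved in 1 tissue. On chromosome 9, proximal 15091849 and distal 15087780 (-), the distal share was 89.9% and 24.4% in wild-type and knockout adipose tissue but 94.8% and 92.9% in lung. The distal site is the chromosome 9 site listed above as lower in adipose tissue alone, and its proximal neighbour had 58 and 121 tags there. On chromosome 4, proximal 149353585 and distal 149349072 (-), lung had 72.8% and 18.3%, and adipose tissue 11.04% and 8.65%. On chromosome 16, proximal 8851650 and distal 8851790 (+), lung had 51.1% and 92.6%, and adipose tissue 87.4% and 82.8%. In both of these lung pairs the knockout share lay nearer to the adipose level than the wild-type share did. That was not particular to adipose tissue, since wild-type lung also lay apart from heart, muscle, liver and kidney. The chromosome 16 pair had 89.2%, 95.1%, 87.8% and 71.9% in the knockout libraries of these tissues, in that order. The chromosome 4 pair had 30.8%, 25.9%, 7.16% and 13.5%. Other pairs moved in opposite directions. On chromosome 7, proximal 112894438 and distal 112891411 (-), the share was 38.6% and 85.2% in adipose tissue and 72.1% and 41.9% in lung. On chromosome 4, proximal 138931840 and distal 138933367 (+), it was 54.1% and 92.6% in adipose tissue and 83.1% and 68.2% in lung.

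**Figure D5:**
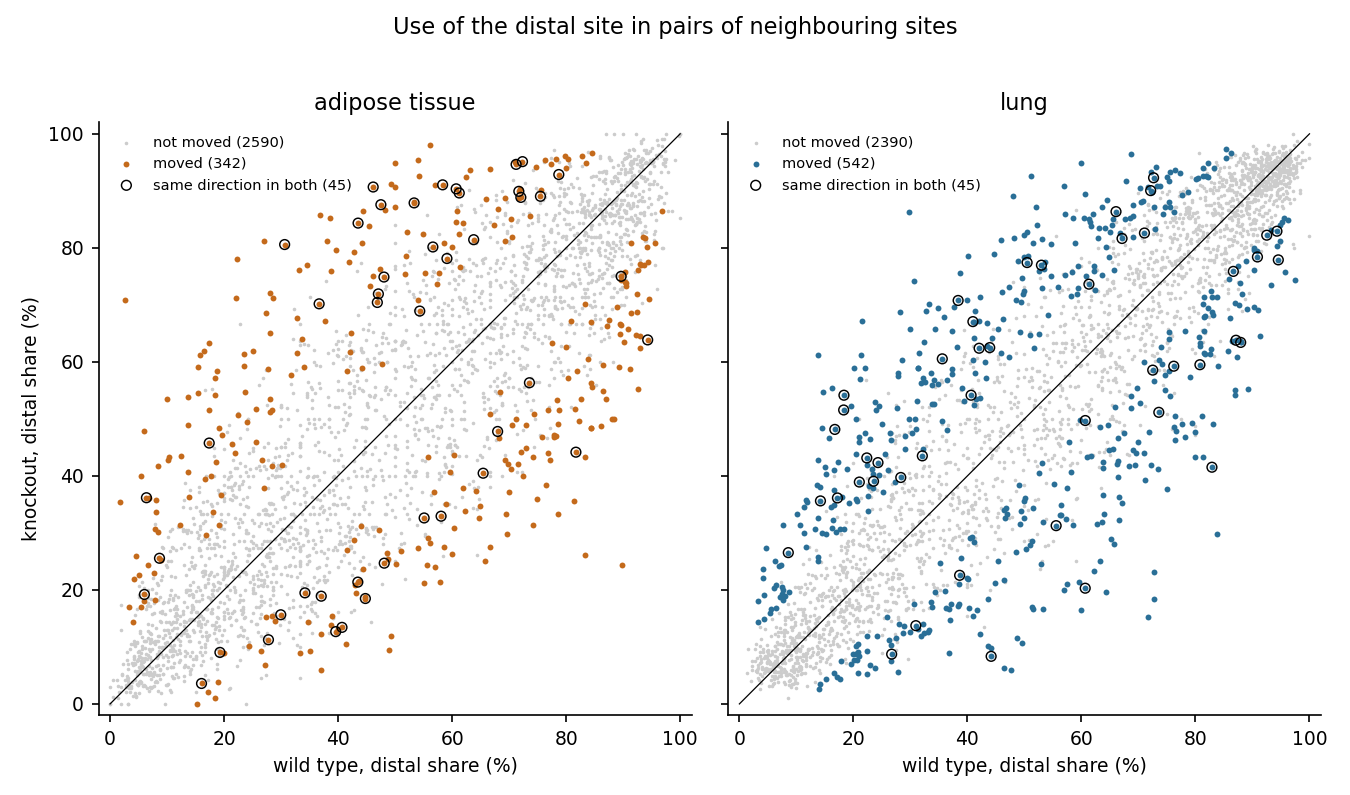
Share of a pair's tags at the distal site in wild type (horizontal axis, %) and knockout (vertical axis, %) for 2932 pairs in adipose tissue (left) and lung (right), with coloured points for pairs that moved within the tissue and black rings for the 45 that moved the same way in both. Moved pairs lie on both sides of the diagonal in similar numbers, 175 and 167 in adipose tissue and 291 and 251 in lung.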

How the data were processed

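Total RNA was the input to 3P-seq, per the labels' protocols. The submitters' processing notes name CASAVA 1.7, Bowtie and mm9; the Bowtie version and the grouping of reads into sites are not stated there. The authors deposited, per library, a list of intervals with an estimated count of tags that was not scaled. Between 1.64% and 5.79% of sites in the 4 libraries had a fractional count. A track offset of 1 was left unapplied, and positions may be 1 nt off in a browser.

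Intervals were merged over the 4 libraries and counts were rounded. Analysis used R 4.3.3 with edgeR 4.0.16 (filterByExpr by tissue, minimum count 10, TMM, quasi-likelihood, Benjamini-Hochberg) and 1 residual degree of freedom. The median prior degrees of freedom of this fit were infinite, so a typical site's spread came from all sites and not from its own tissues. Standard errors were computed back from the log2 difference and the test's F value, and so hold that same spread. The difference between tissues came from a fit to all 12 tissue libraries with 3 residual degrees of freedom. The biological coefficient of variation was 0.351 over both tissues, 0.275 in the 12-library fit and 0.302 for pairs. For counts of 2-fold sites, list medians and plots, fewer than 3 tags were set to 3, and sites with 3 or fewer tags in both libraries of a tissue had no ratio; printed ratios use the tags themselves where neither is 0. No molecular identifiers were counted and tags are not independent molecules, so intervals and the floor cover counting error only. Pairs required 5% of the tags at each site and 20 tags in each library. The steps were tested on simulated counts. The difference test recovered 0% of 4-fold and 72% of 16-fold differences among 200 simulated ones in 18516 sites. For both site tests the changed sites were drawn from better covered sites than the filter asked for.

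The libraries, lists, limits and rules for named sites were chosen with earlier results of these data known. Named sites are, over both tissues, the called sites, at most 10 each way by p, with the next by p where fewer than 5 were called; within a tissue the 5 largest ratios per direction; in 1 tissue only the 4 largest at 50 CPM or more; for opposite directions and differences 5 each; for pairs the 5 of smallest p and the 4 largest moves per direction; and the 3 most abundant sites of a list. The text prints some of these. The chromosome 11 site at 75284391, the other sites named as 2-fold apart in both tissues, the 406 nt and 140 nt neighbours and the chromosome 4 pair at 138931840 were chosen after their values were seen. Alternatives were DESeq2 1.42.0, total-count scaling, nuclear sites alone, no filter, sites merged over 14 libraries, a 12-library fit with each of the 4 libraries left out, no tissue term, and other limits; leaving out the tissues that give the spread was added after seeing the data.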

Additional observations from a re-analysis of the deposited data

Results flagged for a closer look

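The genotype difference itself differed between adipose tissue and lung at 50 of 18516 sites in edgeR's test of that difference. Among the 5 of smallest p with the higher knockout-to-wild-type ratio in adipose tissue, the log2 difference of differences was 7.08 at chromosome 1, 46067078 (-), 5.98 at chromosome 9, 69284516 (-), 5.03 at chromosome 4, 52225208 (-), and 4.005 at chromosome 6, 84521418 (-). It was 8.97 at chromosome 11, 106238409 (+), where wild-type adipose tissue had 0 tags and knockout 11, so that fitted value depends on the prior count and is no bound. All of these are sparse in adipose tissue, with at most 71 tags in a library.

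Among the 5 with the higher ratio in lung, the value was -5.68 at chromosome 16, 3904768 (+), -4.87 at chromosome 7, 86865109 (-), -4.98 at chromosome 9, 57810670 (+), -5.72 at chromosome 6, 11288032 (-), and -4.30 at chromosome 4, 132808842 (+). The chromosome 9 site had 53 and 11 tags in wild-type and knockout adipose tissue and 70 and 874 in lung. The chromosome 4 site had 113 and 63 in adipose tissue and 14 and 294 in lung.

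At 101 of 4268 sites the 2-fold differences had opposite directions in the 2 tissues; with 1 library per group, the difference was not tested for this count.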

How the results depend on the processing

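The test over both tissues gave 14 calls with the analysis as reported. Of these, 4 remained with DESeq2, 11 with total-count scaling and 14 with nuclear sites alone. Merging sites over 14 libraries kept 12, and the 12-library fit kept 4. With no filter there were 9 calls among 84671 sites, 4 of them among the 14, and with no tissue term 0, where 19 sites had an unadjusted p under 0.05. Leaving out each of the 4 libraries in turn gave 90 to 133 calls, of which 6 or 7 were among the 14; each such fit holds the genotype difference of 1 tissue alone, set against the spread of the others, so these are not shared calls. Pairs went from 0 to between 3 and 16 in the same way. None of the 14 called sites and of the 10 sites named from the difference test changed direction in the alternatives run on them; sites named from a single tissue or a list were not run site by site. No paired analysis was possible because each group has 1 library, so that replicate numbers pair nothing beyond the tissue, which is a term of the fit. The difference test called 113 sites when the heart libraries were left out of the spread, 67 without muscle, 15 without liver and 18 without kidney, and 42 with no filter. Without the kidney libraries the call at chromosome 7, 86865109 was lost (edgeR adjusted p = 0.0515), and with no filter that at chromosome 6, 84521418 (edgeR adjusted p = 0.115). At 50 CPM the 2-fold sites numbered 1068 in adipose tissue and 357 in lung, at 3-fold 775 and 232, and at 20 percentage points 251 lung pairs moved. Requiring 8 times the other tissues for the lists turned the median of liver sites in adipose tissue, less that of all sites, from -0.10 to 0.093. It moved muscle sites in adipose tissue to 0.00, kidney sites in adipose tissue to -0.13, adipose sites in lung to 1.28 and muscle sites in lung to -0.20. The cause of these changes was not tested. The adipose libraries held the fewest tags, and the part of depth in these results was not tested. Sites with few tags in every library were below the filter, while a site sparse in only some libraries could pass it.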
